A study of Homo sapiens with 6 samples.

Results

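CEP170, STIL and CIT are 3 human genes that act at the centrosome or in the last step of cell division, and all of them lie on the minus strand. They were followed here through the splice junctions counted in K562, an erythroid-type line from a patient with chronic myeloid leukaemia. Their junctions were taken as every minus-strand junction inside a window per gene in hg19 coordinates: 243287700 to 243418800 on chromosome 1 for CEP170, 47715800 to 47779900 on chromosome 1 for STIL, and 120123500 to 120315150 on chromosome 12 for CIT. This gave 262 junctions of 780566 in the whole table: 71 in CEP170, 98 in STIL and 93 in CIT. The 3 genes were chosen because splice site shares in them differed between the groups of these same libraries. The comparison of the groups within them is therefore a description and carries no test.

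In the control group, 3 libraries came from cells whose U2AF1 knock-in was wild type, and the mutant group was 3 libraries from cells with the genotype U2AF1 S34F. U2AF1 is the small U2AF subunit, which recognises the AG that closes an intron. In S34F, a zinc finger residue is changed from serine to phenylalanine. All libraries were made from poly(A)+ RNA, and the labels name no treatment, time, clone or number of gene copies edited. They do not say whether the replicates were separate cultures, so the spread between them may be technical. Marker genes of K562 cells were not analysed here, and the cell identity rests on the labels.

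CEP170 is a protein of the subdistal appendages of the mother centriole, where microtubules are anchored. STIL is a scaffold that is recruited when a new centriole forms beside the old one, together with the kinase PLK4 and the cartwheel protein SASS6. CIT encodes citron kinase, which sits at the cleavage furrow and midbody and is needed for the final separation of daughter cells. Inherited loss of STIL or CIT causes primary microcephaly, as the RefSeq synonyms MCPH7 for STIL and MCPH17 for CIT record.

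The libraries held from 18074706 to 39279169 uniquely mapped spliced reads, with S34F replicate 2 the shallowest and S34F replicate 3 the deepest. CEP170 had 7553 unique spliced reads over all libraries, STIL 10065 and CIT 10250. Positions below are intron ends, 1-based, as the files list them. A 5′ splice site is given by the first base of the intron and an acceptor, or 3′ splice site, by its last base. A share at a 5′ splice site is the part of the unique reads leaving that site that reach a given acceptor. A share at a 3′ splice site is the part of the reads reaching that site that come from a given 5′ splice site.

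In each of the 3 genes, at least 1 internal exon could begin at more than 1 annotated acceptor. At the exon with the largest difference in each gene, the last acceptor, which gives the shortest exon, took a larger share in S34F. The extra sequence between the acceptors was 108 nt in CEP170, 51 or 54 nt in STIL and 45 nt in CIT. Each of these lengths is a multiple of 3, so either choice would keep the reading frame if the exon is coding, which was not examined. In none of the 3 genes did the shares of the last acceptor overlap between the groups. Each exon was picked for the largest difference in its gene, so its separation follows in part from that choice. Over the whole table, 25.2% of tested junctions did not overlap. Another CIT exon had 2 annotated acceptors, at 120128260 and 120128257. There the last took 44.2% ± 15.2 in wild type and 38.9% ± 1.5 in S34F, with overlapping groups. A further 5′ splice site of CIT, at 120172964, was joined to annotated acceptors at 120172212 and 120172163, with 3 and 274 unique reads.

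In CEP170, the 5′ splice site at 243327585 on chromosome 1 was joined either to the acceptor at 243319758 or to the one at 243319650. The next 5′ splice site lies at 243319522, so the exon is 235 nt long from the first acceptor and 127 nt from the last. The difference has the length of 36 codons. In wild type, the last acceptor took 22.5% of 102 reads in replicate 1 (95% Clopper-Pearson interval 14.9% to 31.9%), 22.6% of 106 in replicate 2 (15.1% to 31.8%) and 17.9% of 78 in replicate 3 (10.2% to 28.3%). In S34F, it took 65.2% of 89 reads in replicate 1 (54.3% to 74.96%), 70.6% of 68 in replicate 2 (58.3% to 81.0%) and 60.7% of 140 in replicate 3 (52.1% to 68.9%). Every S34F library thus used the short exon for most of its reads, and every wild-type library used the long one. The means were 21.0% ± 2.7 and 65.5% ± 4.9 (SD, n = 3 each). They differed by 44.4 percentage points, or 2.78 in log2 odds. All intervals here take in counting error alone and treat every read as a separate molecule. Reads that carry no molecular identifier may be copies of one molecule, so the intervals may be too narrow.

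In reads per 1000000 unique spliced reads, both CEP170 junctions differed between the groups, in opposite directions. The junction to the last acceptor was at 0.904, 0.963 and 0.722 in wild-type replicates 1 to 3 and at 2.47, 2.66 and 2.16 in the S34F replicates. The junction to the first acceptor was at 3.11, 3.29 and 3.30 in wild type, against 1.32, 1.11 and 1.40 in S34F. The groups overlapped at neither junction.

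STIL had 3 annotated acceptors for the 5′ splice site at 47735306 on chromosome 1. They lie at 47728789, 47728786 and 47728735, the first 3 nt before the second and 54 nt before the last. With the next 5′ splice site at 47728574, the exon is 214, 211 or 160 nt long. The last acceptor leaves out the length of 18 or 17 codons. In wild type, the last acceptor took 38.2% of 102 reads in replicate 1 (28.8% to 48.4%), 21.2% of 99 in replicate 2 (13.6% to 30.6%) and 21.3% of 75 in replicate 3 (12.7% to 32.3%). In S34F, it took 54.0% of 100 reads in replicate 1 (43.7% to 64.02%), 53.3% of 92 in replicate 2 (42.6% to 63.7%) and 53.4% of 163 in replicate 3 (45.4% to 61.2%). The S34F libraries lay within a point of each other, while wild-type replicate 1 stood above the other wild-type libraries and nearest to S34F, with a counting interval that overlaps all those of S34F. The means were 26.9% ± 9.8 and 53.5% ± 0.40 (SD, n = 3 each), a difference of 26.6 points and of 1.64 in log2 odds.

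Both upstream acceptors of STIL took less in S34F. The one at 47728786 was at 46.0% ± 7.6 in wild type and 29.6% ± 2.1 in S34F, with shares of 38.2%, 46.5% and 53.3% against 31.0%, 27.2% and 30.7%. The one at 47728789 was at 26.1% ± 5.9 and 13.5% ± 1.5, with 20.6%, 32.3% and 25.3% against 13.0%, 15.2% and 12.3%. The groups did not overlap at either acceptor. Set against each other alone, the 2 tandem acceptors were close between the groups: the first took 36.1% ± 4.5 of their joint reads in wild type and 31.3% ± 4.0 in S34F, with overlapping groups.

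CIT joined the 5′ splice site at 120158282 on chromosome 12 to an acceptor at 120156667 or to one at 120156622. The next 5′ splice site is at 120156503, which makes the exon 163 or 118 nt long, a difference with the length of 15 codons. This site was the most thinly read of the 3, with 24 to 56 reads per library. In wild type, the last acceptor took 29.0% of 31 reads in replicate 1 (14.2% to 48.0%), 51.5% of 33 in replicate 2 (33.5% to 69.2%) and 62.5% of 24 in replicate 3 (40.6% to 81.2%). In S34F, it took 82.4% of 34 reads in replicate 1 (65.5% to 93.2%), 88.5% of 26 in replicate 2 (69.8% to 97.6%) and 85.7% of 56 in replicate 3 (73.8% to 93.6%). The wild-type libraries were spread over a wide range, the S34F libraries over a narrow one above it. The counting interval of wild-type replicate 3 overlaps those of all S34F libraries, and that of wild-type replicate 2 overlaps that of S34F replicate 1. The means were 47.7% ± 17.1 and 85.5% ± 3.1 (SD, n = 3 each), a difference of 37.8 points and of 2.70 in log2 odds.

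**Figure D1:**
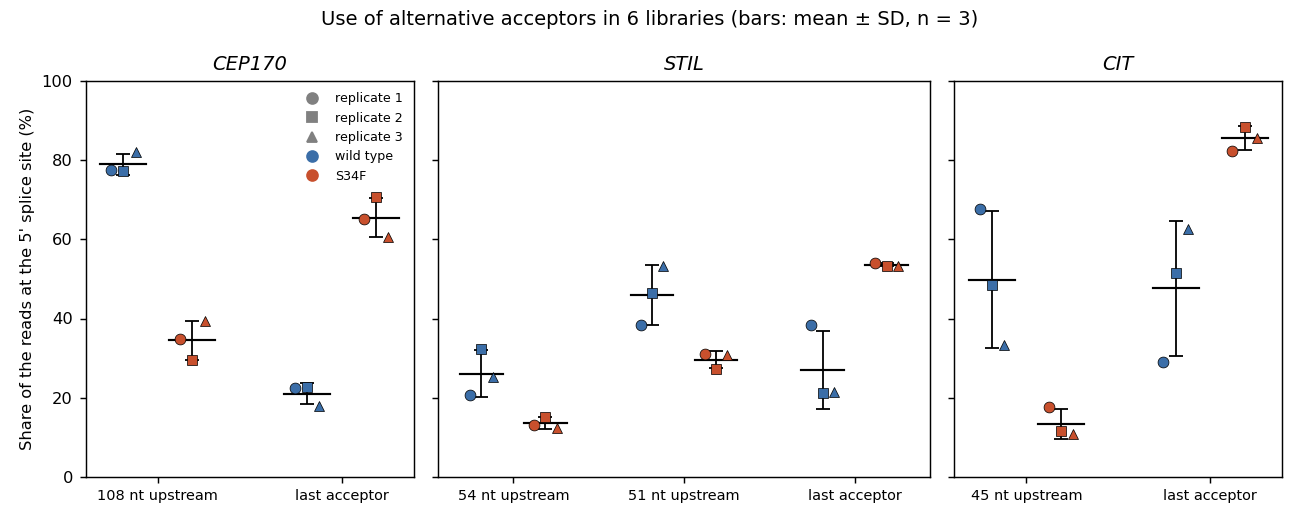
Share of the unique reads leaving one 5′ splice site (y axis, percent) that reached each annotated acceptor (x axis, named by its distance before the last one) in CEP170, STIL and CIT. Points are libraries, with replicates by shape and groups by colour, and bars are the mean ± SD of 3 libraries; at the last acceptor every S34F library lies above every wild-type library, with means of 65.5% against 21.0% in CEP170.

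These junctions were set beside the rest of the table with edgeR's quasi-likelihood test on all sites with at least 20 reads in every library. A junction was called at a Benjamini-Hochberg adjusted p under 0.05 with a difference of at least 10 points. Of the 262 junctions, 23 could be tested at their 5′ splice site: 6 of CEP170, 13 of STIL and 4 of CIT. In all, 5 of the 23 were called, against 2.11% of the 51522 tested in the whole table. They were both CEP170 acceptors, both CIT acceptors and the last acceptor of STIL. Junctions that leave one 5′ splice site split its reads and are not separate observations, so the 5 called come from 1 site per gene. Since the genes were chosen on this contrast, nothing is read from the count of 5. The DESeq2 fit called 2, both in CEP170, against 150 of 51522 over the whole table. The limma fit on log2 odds called 0, as it did over the whole table. Without S34F replicate 2 or without S34F replicate 3, 2 remained called, again those of CEP170. The whole-table counts were then 337 of 49886 and 77 of 41558. Without wild-type replicate 1, all 7 acceptors above were called, while the whole-table count was 1932 of 46510. The last acceptor of STIL was not called in any of the other 5 fits that left out a library. In those 5 fits the whole-table count ranged from 77 to 634.

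Just inside the 10 point limit was the STIL acceptor at 47728789, with a difference of -12.6 points, and just outside it the CIT acceptor at 120128260, with 5.34. The CIT acceptor forms a tandem pair with one at 120128257, 3 nt further on, after the 5′ splice site at 120135463. The first of the tandem took 73.1%, 50% and 40.7% of the reads in wild type, against 60.0%, 62.9% and 57.0% in S34F. The S34F values lie inside the wild-type range. The median absolute difference over the 23 junctions was 3.81 points and over all tested junctions 1.48. A difference of at least 10 points was found at 7 of the 23, against 7.32% in the whole table. The groups did not overlap at 8 of the 23, against 25.2%. Both counts include several junctions of the same site, which are not independent.

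Paired with one another, acceptors at most 100 nt apart gave 5 pairs, 2 in CIT and 3 in STIL. The 3 pairs that include a last acceptor were called, each towards the downstream acceptor. Over the whole table, 162 of 5684 pairs were called in either direction, and 2.48% in that direction. The genes were chosen on this contrast, so nothing is read from the count of 3 or from its direction. The upstream acceptor at 120156667 of CIT went from 51.1% ± 17.8 to 13.4% ± 3.7 of the pair's reads. In STIL, the one at 47728786 went from 63.4% ± 11.7 to 35.6% ± 1.6 against the last acceptor, and the one at 47728789 from 49.9% ± 13.2 to 20.1% ± 1.9. The STIL pairs share the reads of the last acceptor and are not separate observations. The CEP170 acceptors, 108 nt apart, fall outside this class. With pairs up to 500 nt apart the CEP170 pair was called too, making 4 of 7, against 2.86% of 9787 pairs called in either direction. Nothing is read from this count either. DESeq2 called 1 of the 5 pairs, against 41 of 5684 in the whole table, and limma called 0, against 9 of 5684.

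Choice of the 5′ splice site gave no difference as large as those of the acceptors above. At acceptors reached from more than one 5′ splice site, 24 junctions were tested, 11 of CEP170, 11 of STIL and 2 of CIT. The edgeR fit called 0 of the 24, against 0.934% of 48269 in the whole table. Unadjusted p values of these junctions are not given, since the genes were chosen on this contrast. DESeq2 and limma called 0 as well, against 183 and 0 of 48269. The median absolute difference was 3.72 points, against 1.43 over all junctions tested this way. The groups did not overlap at 6 of the 24, against 22.4% in the whole table, and 0 differed by 10 points or more, against 6.01%.

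In CEP170, the acceptor at 243303410 was reached from 3 annotated 5′ splice sites. The site at 243305617 gave 42.7% ± 13.8 of its reads in wild type and 34.4% ± 11.03 in S34F, the largest difference at a shared acceptor, with overlapping groups. The site at 243305668 gave 33.8% ± 15.2 and 39.2% ± 4.7, and the one at 243305587 gave 18.7% ± 10.1 and 17.5% ± 1.6. At each of the 3 sites the SD in wild type exceeded the difference between the groups. At the 5′ end of the gene, the 5′ splice sites at 243418341 and 243418348 both reached the acceptor at 243388624. The former gave 73.1% ± 8.3 and 69.8% ± 5.3 of its reads, the latter 20.1% ± 7.9 and 24.5% ± 0.42.

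In STIL, the acceptor at 47776035 was reached from several 5′ splice sites near the start of the gene. The 5′ splice site at 47779707 gave 78.7% ± 2.2 of its reads in wild type and 82.8% ± 3.6 in S34F. The one at 47778619 gave 18.3%, 17.5% and 17.7% in wild type, against 9.52%, 10.4% and 13.7% in S34F, so that the groups did not overlap. The difference there was -6.65 points.

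Cassette exons, which are included or skipped whole, gave 8 tested combinations in the 3 genes. The edgeR fit called 0 of the 8, against 2.74% of 19272 in the whole table. DESeq2 and limma also called 0, against 265 and 0 of 19272. Unadjusted p values are left out here for the same reason. The groups did not overlap at 2 of the 8, against 29.2%. Inclusion is the mean of both inclusion junctions over that mean plus the skipping junction. The 294 nt exon of CEP170 from 243349081 to 243349374, a multiple of 3 in length, was included at 60.8% ± 10.4 in wild type and 57.7% ± 2.9 in S34F. The 477 nt exon of CEP170 from 243354320 to 243354796 was included at 98.0% ± 2.2 and 97.1% ± 1.2.

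Unlike the extra sequence at the alternative acceptors picked above, the cassette exons tested in STIL and CIT all had lengths that are not multiples of 3. Whether they lie in coding sequence was not examined. The 251 nt exon of STIL from 47725961 to 47726211 follows the exon with the alternative acceptors. It was included at 89.1% ± 5.8 in wild type and 85.5% ± 1.8 in S34F, and the skipping junction is unannotated. In CIT, the 181 nt exon from 120151273 to 120151453 was skipped by an unannotated junction with 0 unique reads in each wild-type library and 2, 2 and 6 in the S34F replicates. Its inclusion was 95.5%, 93.5% and 91.5% in S34F, from 10 skipping reads in all.

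A 45 nt exon of CIT from 120148854 to 120148898 fell below 20 reads in 1 library and was singled out after its values were seen. Its inclusion was 70.6%, 48.0% and 34.8% in wild-type replicates 1 to 3 and 35.0%, 30.4% and 23.9% in S34F, from 17 to 46 reads. The groups overlapped, since wild-type replicate 3 lay below S34F replicate 1. Wild-type replicate 1 had the highest inclusion here, the highest share of the upstream acceptor at 120156667 and the highest share of the first tandem acceptor at 120128260. It was the library farthest from S34F at the first 2 of these CIT sites, whereas at the last acceptor of STIL it stood nearest to S34F.

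**Figure D2:**
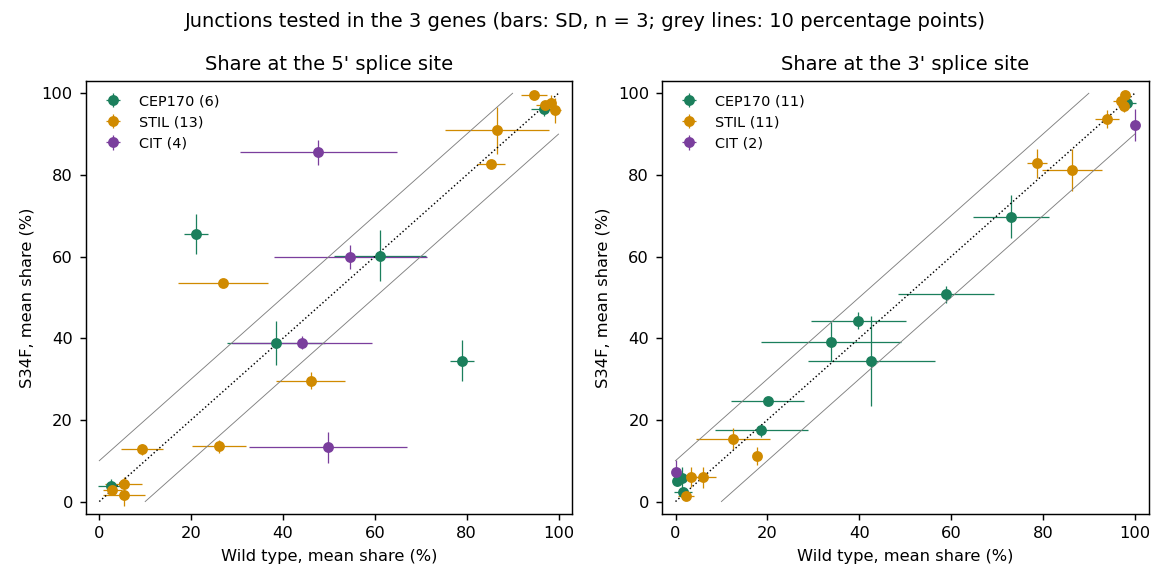
Mean share in S34F (y axis, percent) against mean share in wild type (x axis, percent) for the 23 junctions tested at their 5′ splice site (left) and the 24 tested at their 3′ splice site (right). Points are junctions coloured by gene, bars are the SD of 3 libraries, and grey lines mark 10 percentage points; 7 points lie outside the lines on the left and 0 on the right.

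The amount of spliced RNA of each gene was measured as its unique junction reads per 1000000 unique spliced reads of the library. CEP170 was at 52.5, 57.5 and 61.4 in the wild-type replicates and at 45.3, 44.1 and 44.2 in the S34F replicates. Each S34F library lay below each wild-type library, with means of 57.1 ± 4.4 and 44.5 ± 0.70 (SD, n = 3 each), a ratio of S34F to wild type of 0.780. CIT was at 57.3, 60.9 and 60.0 in wild type, against 81.7, 66.9 and 76.0 in S34F. Here each S34F library lay above each wild-type library, with means of 59.4 ± 1.8 and 74.9 ± 7.4 and a ratio of 1.26. STIL was at 62.7, 74.0 and 71.0 in wild type, against 68.0, 60.1 and 65.4 in S34F, so that the groups overlapped around means of 69.2 ± 5.8 and 64.5 ± 4.0. How many genes of the whole table separate in this way was not counted, so nothing is read from the separation in CEP170 and CIT. In RNA from a whole culture, fewer cells with a transcript and less of it per cell cannot be told apart.

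**Figure D3:**
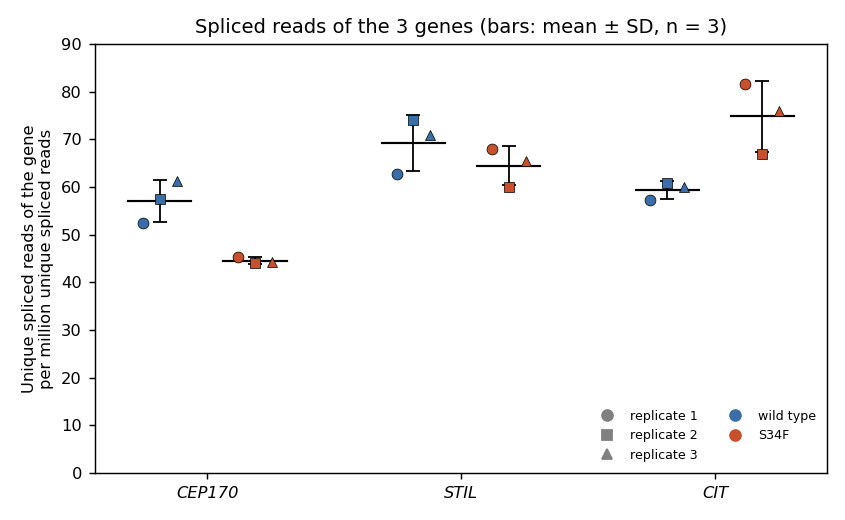
Unique spliced reads of CEP170, STIL and CIT per 1000000 unique spliced reads of the library (y axis). Points are libraries, with replicates by shape and groups by colour, and bars are the mean ± SD of 3 libraries; S34F lies below wild type in CEP170 (44.5 against 57.1) and above it in CIT (74.9 against 59.4), and the groups overlap in STIL.

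The differences in amount in CEP170 and CIT were seen at most, but not all, annotated junctions along the gene. Among annotated junctions with a unique read in every library, 45 of 50 in CIT were higher in S34F, with a median log2 ratio of 0.34. In CEP170, 3 of 25 were higher and the median was -0.40. In STIL, 5 of 21 were higher and the median was -0.16. Over all 136765 such junctions of the table, 53.5% were higher in S34F and the median was 0.04. Junctions of one gene share their transcripts and are not independent.

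Each gene was divided into 3 parts by the order of these junctions, a division chosen after the values were seen. In CIT the ratio of S34F to wild type was 1.27 in the 5′ part, 1.31 in the middle and 1.203 in the 3′ part. In CEP170 it was 0.787, 0.760 and 0.756. The groups did not overlap in any part of either gene, again without a whole-table share to set beside it. In STIL it was 0.883, 0.905 and 0.996, and the groups overlapped in every part. The junctions to the alternative acceptors had the largest log2 ratios in either direction in each gene: -1.34 and 1.49 in CEP170, -0.75 and 1.17 in STIL, and -1.71 and 1.03 in CIT.

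**Figure D4:**
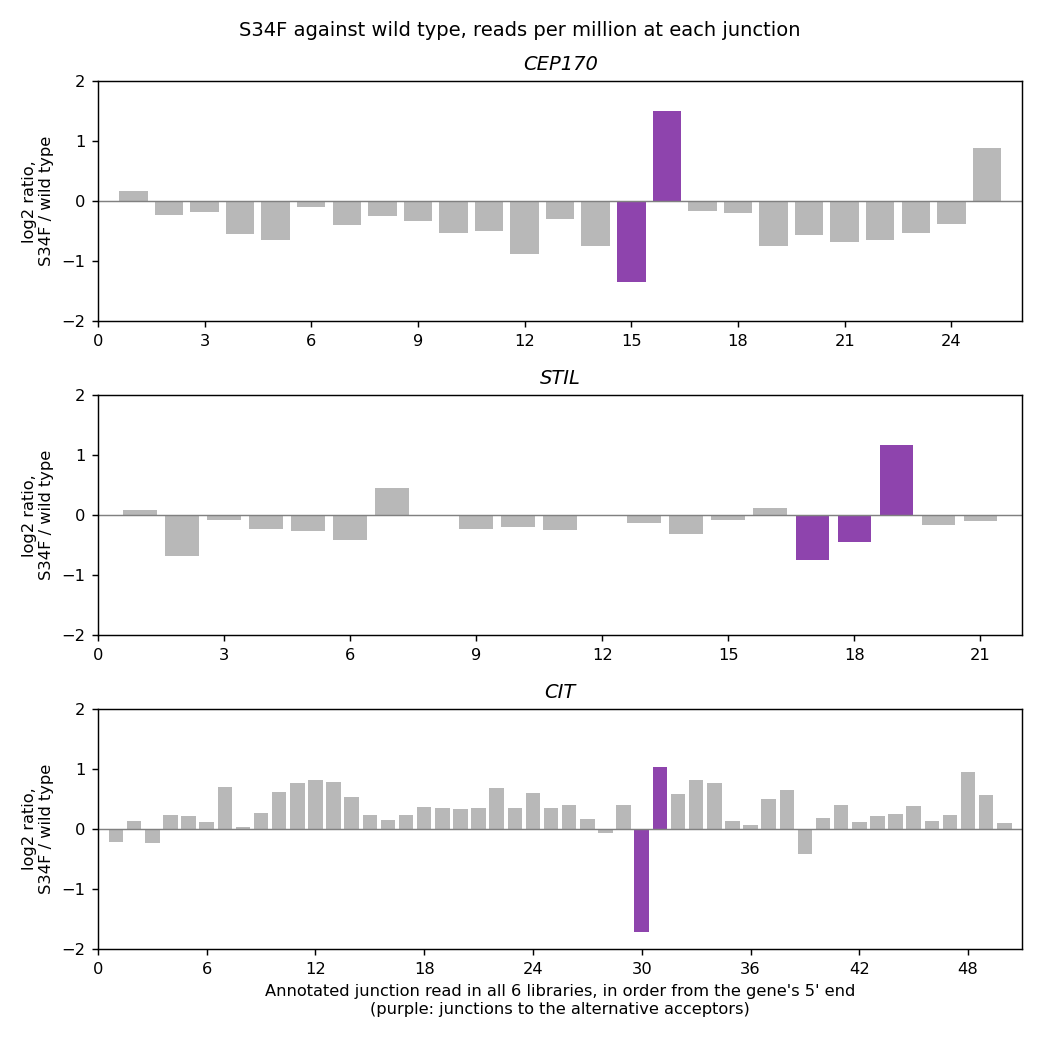
The log2 ratio of mean reads per 1000000 in S34F to wild type (y axis) at each annotated junction read in all 6 libraries (x axis, in order from the 5′ end of the gene). Bars are junctions, and purple marks those to the alternative acceptors; most bars lie below 0 in CEP170 (3 of 25 above) and above 0 in CIT (45 of 50), and the purple bars reach from -1.71 to 1.49.

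The most-read junction of CEP170, from 243292661 to 243291603, had 4.72, 5.01 and 5.83 reads per 1000000 in wild type, against 3.45, 3.54 and 3.84 in S34F. It lies near the 3′ end of the gene, and the groups did not overlap there. In CIT, 2 junctions tied as the most read, with 310 unique reads each. The one from 120196394 to 120195350 had 1.42, 2.05 and 1.75 in wild type, against 2.13, 1.83 and 2.70 in S34F. The one from 120168299 to 120166412 had 2.08, 2.17 and 1.39, against 2.34, 1.66 and 2.32. The most-read junction of STIL, from 47745912 to 47737914, had 6.10, 6.94 and 4.75 against 5.71, 4.54 and 6.62. The groups overlapped at the CIT and STIL junctions.

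Reads of CEP170 were in part not unique. RefSeq lists a transcribed pseudogene, CEP170P1, on chromosome 4, and multi-mapped reads made up 24.1% ± 2.5 of the spliced reads of CEP170 in wild type and 24.0% ± 1.1 in S34F. In STIL they made up 2.73% ± 0.40 and 2.73% ± 0.36, and in CIT 0.660% ± 0.14 and 1.08% ± 0.35. They were uneven along CEP170: 70.2% at the junction from 243364078 to 243363983 and 69.8% at the one from 243319522 to 243305766, which leaves the exon with the alternative acceptors. The alternative acceptors themselves had few, 19 against 331 unique reads at 243319758 and 5 against 252 at 243319650. With multi-mapped reads counted, the last acceptor of CEP170 took 21.0% ± 1.3 in wild type, against 63.97% ± 5.1 in S34F. The STIL acceptors were uneven too: 19 against 119 unique reads at 47728789, 18 against 231 at 47728786 and 1 against 266 at the last one. Counted in the same way, the last acceptor of STIL took 25.3% ± 9.9 in wild type and 51.0% ± 0.11 in S34F. Unique counts of CEP170 at the other sites are uncertain to the extent that the copies share sequence.

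**Figure D5:**
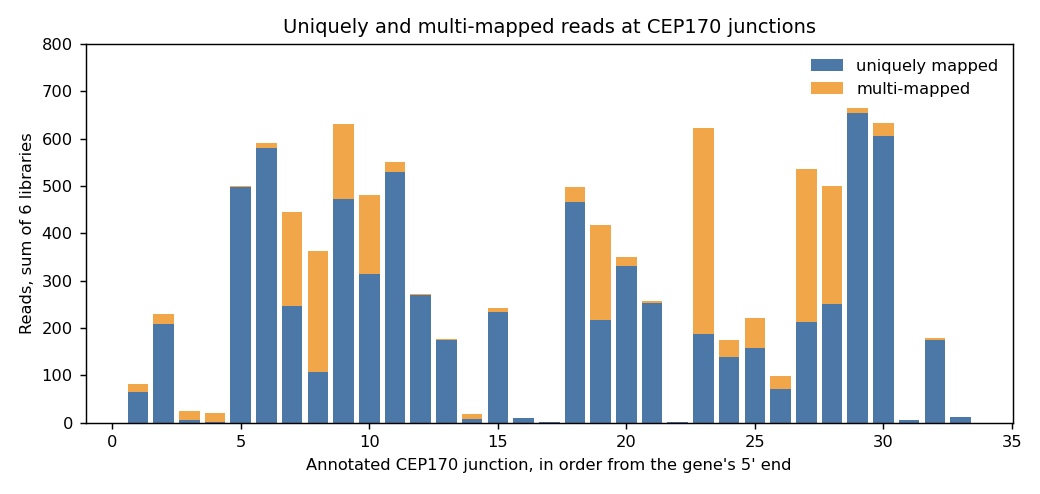
Reads at each annotated CEP170 junction (x axis, in order from the 5′ end of the gene), summed over 6 libraries (y axis), with uniquely mapped reads in blue and multi-mapped reads in orange on top. The multi-mapped part is as high as 435 reads at the junction after the exon with the alternative acceptors, and is 19 and 5 at the acceptors themselves.

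An intron of CEP170 from 243375187 to 243364138 carries the code for AT-AC ends, which mark some introns removed by the minor spliceosome, and is annotated. It had 2.01 ± 0.20 unique reads per 1000000 in wild type and 1.28 ± 0.42 in S34F, and 44.7% of its spliced reads were multi-mapped. STIL has an annotated intron with GC-AG ends, from 47759129 to 47755258. It was at 2.97 ± 0.40 and 2.61 ± 0.29 reads per 1000000, with overlapping groups.

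Unannotated junctions numbered 37 of 71 in CEP170, 75 of 98 in STIL and 38 of 93 in CIT, and most were seen once or a few times. At most 2 unique reads over all libraries were found for 29 of those in CEP170, 49 in STIL and 26 in CIT. They carried 0.920% ± 0.16 of the CEP170 reads in wild type and 1.59% ± 0.72 in S34F, 3.59% ± 0.59 and 3.88% ± 0.63 in STIL, and 1.47% ± 0.30 and 1.25% ± 0.18 in CIT. The groups overlapped in each gene. Only 2 unannotated junctions reached 10 unique reads in a library. One was the junction from 120149982 to 120148899 into the 45 nt exon of CIT. The other skips the 251 nt exon of STIL, from 47728574 to 47717595. Its share at that 5′ splice site was 9.34% ± 4.6 in wild type and 12.8% ± 1.3 in S34F, with overlapping groups. In CEP170, the most-read unannotated junction ran from 243303764 to 243303410, with 12 unique reads in all. It took 1.43% ± 0.16 of the reads of that acceptor in wild type and 5.66% ± 2.9 in S34F. The groups did not overlap, against 22.4% of the whole table, but rested on 1, 1 and 1 reads against 4, 3 and 2.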

How the data were processed

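Splice junction tables of 6 poly(A)+ RNA libraries, 3 per group, were analysed. Per the submitters' processing notes, the reads were aligned with STAR to hg19. The aligner version, annotation and junction filters are not given in the sources used here. The deposited values are raw counts of unique and of multi-mapped reads per junction, with the largest overhang in nt as another deposited column. The tables were joined on position, and a missing junction was counted as 0. Junctions with motif codes 1 to 6 entered the tests.

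Members and lists were chosen with earlier results of these data known. Each class (shares at 5′ or 3′ splice sites, acceptor pairs, cassette exons of at most 500 nt) was fitted over the whole table with edgeR 4.0.16 (quasi-likelihood F-test, robust, legacy mode; R 4.3.3). Terms were 1 intercept for each library, the type of count, and its interaction with S34F. An event needed 20 reads in every library and 10 on each side in all. Inclusion counts were rounded. DESeq2 1.42.0 and limma 3.58.1 (pseudocount 0.5) were alternatives. The fits were tested on simulated data. Tables and intervals were made in Python 3.11.15 (pandas 2.3.3; scipy 1.17.1; numpy 2.4.6).

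Named were the most-read junction per gene, events at least 10 points apart, the next below, and the most-read unannotated junctions. Other junctions described were picked after their values were seen. Positions of other centrosome and cytokinesis genes, of K562 markers, and hg19 sequence were not used here.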

Additional observations from a re-analysis of the deposited data

How the results depend on the processing

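With multi-mapped reads added, the difference of the last acceptor was 43.0 points in CEP170, 25.7 in STIL and 38.0 in CIT. The groups did not overlap at these acceptors, so leaving out a library could not turn their direction. The leave-one-out differences of the last acceptor ranged from 41.9 to 46.8 points in CEP170, 23.8 to 32.3 in STIL and 28.5 to 45.2 in CIT. The count of called acceptor junctions, 5, fell to 2 in DESeq2, to 0 in limma and to 3 with at least 50 reads in every library, where the CIT site was not tested. With no low-count filter it was 4, and the last acceptor of STIL was no longer called. It ranged from 2 to 7 when single libraries were left out. Over the whole table, 1088 of 51522 were called, 150 in DESeq2, 0 in limma and 682 of 35815 with at least 50 reads. With no low-count filter the whole-table count was 494 of 352391. It ranged from 77 to 1932 without single libraries. The count of called pairs, 3, was 1 with DESeq2, 0 with limma, 1 with at least 50 reads (1 pair tested) and 1 within 50 nt (3 pairs tested). It was 3 without any single library. Over the whole table, 162 of 5684 pairs were called, 41 with DESeq2 and 9 with limma. Of the whole-table pairs, 92 of 4097 were called with at least 50 reads and 93 of 4412 within 50 nt. The counts of called junctions at 3′ splice sites and of called cassette exons were 0 under every alternative run. The log2 ratio of spliced reads ranged from -0.42 to -0.30 in CEP170, 0.27 to 0.41 in CIT and -0.17 to -0.05 in STIL without single libraries. DESeq2 size factors gave -0.39, 0.30 and -0.13.

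The labels give both groups the replicate numbers 1 to 3. Deviations from the group means correlated at -0.09, -0.02 and -0.04 over acceptor junctions for libraries with the same number. For libraries with different numbers, the values ran from -0.03 to 0.07. No pairing by number was seen in these shares. Counting error at thinly read sites could hide a shared batch, so pairing was not excluded. With the replicate block, 5 acceptor junctions and 3 pairs were called, and the log2 ratios of spliced reads were -0.36 in CEP170, 0.33 in CIT and -0.10 in STIL. With 24 to 56 reads per library, the CIT site has the widest counting intervals.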
